A study of Mus musculus with 39 samples.

Results

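Cytochrome P450 genes of families 1 to 3 were followed in the livers of mice that had lived through repeated encounters with an aggressor and in those of their controls. The members are the mouse genes whose symbol begins with Cyp1, Cyp2 or Cyp3 followed by a letter, found on the array through the RefSeq accession of each probe. Of the 17016 genes that could be named on the array, 45 were members, 3 of family 1, 36 of family 2 and 6 of family 3, while the RefSeq table lists 87 such symbols, 60 of them protein-coding. Where a gene had more than 1 probe, as 16 members did, the one with the brightest liver signal stood for it.

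The mice were male C57BL/6J, 5 to 6 wks of age and housed singly. Aggressor-exposed mice (AggE) were put for 6 hrs a day into the home cage of a trained SJL male, behind the wire of a smaller cage, and were brought into direct contact with it up to 3 times a session. Control mice (Ctrl) went through the same moves, cage and hours without food, with no aggressor there. Mice of both arms went through a partition test, in which an aggressor was sensed across a barrier, 1 hr before sampling. Liver was taken 24 hrs post-5-day stressor and 1.5 wks post-5-day stressor from 4 Ctrl and 5 AggE mice each, 24 hrs post-10-day stressor from 4 Ctrl and 5 AggE mice, and 4 wks post-10-day stressor from 6 mice of each arm. Groups follow the source labels, which other labels contradict in part: the titles of all 5 AggE mice and 1 Ctrl mouse 1.5 wks post-5-day bear a 10, and the descriptions of the 5 AggE mice 24 hrs post-5-day name 1 day in place of 5. The regimen of these mice thus rests on their remaining labels. Ages at sampling therefore differed between the 4 times, and each AggE group was compared with the Ctrl group of its own time. Every level below is a log2 ratio of a mouse's liver RNA to 1 common reference RNA on the same array, so that a difference of 1 is a 2-fold difference. A level belongs to its probe and cannot be set against another gene's. How far a probe also binds the RNA of close copies of its gene was not tested.

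The enzymes of these families are haem proteins of the endoplasmic reticulum that insert an oxygen atom into drugs, pollutants, steroids, fatty acids and bile acids, with electrons passed on by cytochrome P450 oxidoreductase. Hepatocytes make most of them. Their genes are known for regulation by receptors that bind foreign or endogenous chemicals, the aryl hydrocarbon receptor (AhR) for family 1, and the constitutive androstane receptor (CAR) and pregnane X receptor (PXR) for Cyp2b, Cyp2c and Cyp3a genes. In mice many of them also differ between the sexes through the pattern of growth hormone pulses, and inflammation is known to lower many of them.

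The members on which the results turn, Cyp2b and Cyp2a genes, lie close together on chromosome 7, and the stretches before their starts are shown since the 3 Cyp2b genes, and the 2 Cyp2a genes, moved together from mouse to mouse. Each is the 250 bases before the start on the plus strand, from RefSeq (GRCm38.p6), at chr7:25897408-25897657 for Cyp2b10, chr7:26061245-26061494 for Cyp2b13, chr7:26173159-26173408 for Cyp2b9, chr7:26306942-26307191 for Cyp2a4 and chr7:26835089-26835338 for Cyp2a5. Capitals mark matches, on either strand, to GCGTG, the core of the AhR element, or AGGTCA, the half-site of many nuclear receptors.
Cyp2b9: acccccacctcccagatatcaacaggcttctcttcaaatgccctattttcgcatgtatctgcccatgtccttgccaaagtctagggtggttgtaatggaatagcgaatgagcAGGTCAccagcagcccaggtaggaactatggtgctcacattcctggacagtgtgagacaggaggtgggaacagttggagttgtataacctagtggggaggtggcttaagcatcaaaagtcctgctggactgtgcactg
Cyp2b13: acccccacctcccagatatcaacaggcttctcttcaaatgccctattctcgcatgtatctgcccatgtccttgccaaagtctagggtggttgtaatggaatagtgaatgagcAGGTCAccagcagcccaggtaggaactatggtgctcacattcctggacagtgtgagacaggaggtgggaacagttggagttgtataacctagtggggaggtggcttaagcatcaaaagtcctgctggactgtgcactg
Cyp2b10: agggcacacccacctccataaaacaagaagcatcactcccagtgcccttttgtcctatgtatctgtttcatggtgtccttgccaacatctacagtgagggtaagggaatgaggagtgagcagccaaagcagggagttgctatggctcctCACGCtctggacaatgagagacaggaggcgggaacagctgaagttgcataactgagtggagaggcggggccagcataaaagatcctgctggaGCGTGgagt
Cyp2a4: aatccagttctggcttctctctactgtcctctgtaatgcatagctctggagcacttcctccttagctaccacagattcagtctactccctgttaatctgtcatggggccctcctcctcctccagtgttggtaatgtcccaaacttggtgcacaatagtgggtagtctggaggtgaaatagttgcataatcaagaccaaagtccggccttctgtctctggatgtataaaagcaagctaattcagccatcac
Cyp2a5: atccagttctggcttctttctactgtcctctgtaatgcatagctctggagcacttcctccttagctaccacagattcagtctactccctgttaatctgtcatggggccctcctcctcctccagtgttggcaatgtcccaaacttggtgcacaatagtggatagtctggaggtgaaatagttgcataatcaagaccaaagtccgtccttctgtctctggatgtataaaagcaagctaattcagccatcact
The stretches of Cyp2b9 and Cyp2b13 were the same at 248 of 250 bases and both hold AGGTCA. That of Cyp2b10 was 71.4% identical to either, with GCGTG on both strands and no AGGTCA. Those of Cyp2a4 and Cyp2a5 were 97.6% identical and held neither in these bases. Over windows of 300 bases, which run on 50 bases past the start, AGGTCA stood in 16.3% of 32851 promoters and in 15 of 41 promoters of the 38 members that had one, GCGTG in 32.4% and in 8 of 41, and TTCNNNGAA, a STAT motif, in 8.3% and in 1 of 41. Such matches describe letters only.

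The share of probes whose liver signal stood well above background ran from 15.2% to 70.4% over the 39 arrays, with 25.3% to 31% in Ctrl and 15.7% to 28.2% in AggE 24 hrs post-5-day, and 46.1% to 70.4% in Ctrl and 42% to 57% in AggE 4 wks post-10-day. At each of the 24 hrs points the arms were hybridised on different slides, so slide and arm cannot be told apart there. Treating slide as a random block allows for the likeness of arrays on a slide but does not separate slide from arm. All 6 hepatocyte markers found on the array were well above background in every mouse compared at every time, albumin among them. Of the members, 24 were well above background on every array, 40 on all arrays of at least 1 group, and Cyp2b23, one of the lesser known Cyp2b genes, on none. The labels name no litters, so p-values measure the spread between these mice.

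The members called at the 24 hrs points were Cyp2b genes. Cyp2b9 and Cyp2b13, enzymes known for higher expression in female than in male mouse liver, rose 24 hrs post-5-day stressor, and Cyp2b13 and Cyp2b10, the gene best known as a target of CAR, rose 24 hrs post-10-day stressor. No other member was called at these times. By an adjusted p of 0.05 or less, 2 of 45 members (4.44%) were called 24 hrs post-5-day, where 3.13% of all 17016 genes were, so that share was near the background and is no result about the members as a group. The same count of 2 of 45 came 24 hrs post-10-day, where 0.0940% of all genes were called. By the second rule used here, a change of at least 2-fold with an unadjusted p of 0.05 or less, 2 members were called 24 hrs post-5-day against 0.300% of all genes, and 3 members 24 hrs post-10-day against 0.182%, all of them higher in AggE and all of the Cyp2b genes just named.

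For Cyp2b9 24 hrs post-5-day, the Ctrl mice measured 0.96, 1.23, 1.41 and 2.02, and the AggE mice 1.77, 3.02, 3.40, 3.45 and 3.59. All but 1 AggE mouse were above every Ctrl mouse, and the lowest AggE mouse was inside the Ctrl range. The fitted difference was 1.64 ± 0.44 (SE) on the log2 scale, 3.12-fold, with an adjusted p of 0.031. At 24 hrs post-10-day the Ctrl mice measured 2.72, 2.76, 3.02 and 3.18 and the AggE mice 4.19, 4.27, 4.27, 4.71 and 4.95. The arms did not overlap. The difference of 1.56 ± 0.44 had an unadjusted p of 0.0011 and an adjusted p of 0.506, so Cyp2b9 was called there by the 2-fold rule only. That difference ran from 0.28, with the processed signals of the scanner software, to 1.61 over 13 other ways of processing or fitting, and the call by the 2-fold rule was kept in 6. It was called by adjusted p where only the groups compared were fitted (0.0166).

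Cyp2b13 gave 0.67, 1.11, 1.14 and 1.21 in Ctrl and 0.98, 2.16, 2.18, 2.32 and 2.95 in AggE mice 24 hrs post-5-day. The AggE mouse that was lowest for Cyp2b9, mouse 3, was also the lowest here and lay among the Ctrl mice. Its difference was 1.08 ± 0.28 (adjusted p = 0.025). At 24 hrs post-10-day the Ctrl mice measured 0.95, 1.47, 1.79 and 2.00 and the AggE mice 2.83, 3.20, 3.34, 3.70 and 3.73. The lowest AggE mouse was above the highest Ctrl mouse, and the difference of 1.81 ± 0.28, 3.50-fold, had an adjusted p of 0.00053, the smallest among the members at any time.

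Cyp2b10 24 hrs post-10-day measured 0.62, 0.63, 0.96 and 1.25 in Ctrl and 1.27, 1.81, 1.98, 1.99 and 2.27 in AggE mice. The arms did not overlap, though the lowest AggE mouse was close to the highest Ctrl mouse. The difference was 1.00 ± 0.19, 2.00-fold, with an adjusted p of 0.013. At 24 hrs post-5-day its values were 0.27, 0.48, 0.57 and 0.59 in Ctrl and 0.29, 0.84, 1.04, 1.26 and 1.62 in AggE mice, with 1 mouse of each arm not well above background. That difference of 0.53 ± 0.19 did not pass (adjusted p = 0.119).

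The 24 hrs post-5-day calls by adjusted p were not stable. Without Ctrl mouse 2 or without AggE mouse 5 neither gene was called, Cyp2b13 then having an adjusted p of 0.0904 and 0.073 and Cyp2b9 of 0.0989 and 0.0615, and Cyp2b9 was also lost without Ctrl mouse 1 or 3 or AggE mouse 2 or 4 (0.0619 to 0.079) and Cyp2b13 without Ctrl mouse 4 (0.0595). Under 13 other ways of processing or fitting, each of the 2 was called by adjusted p in 5, with differences from 0.91 to 1.70 for Cyp2b9 and from 0.43 to 1.25 for Cyp2b13. At 24 hrs post-10-day Cyp2b13 kept its call without any single mouse (adjusted p of 0.00989 or less) and in 7 of the 13, with differences from 1.06, with Cy-5 alone, to 1.83. Cyp2b10 lost its call without Ctrl mouse 2 or 4 or AggE mouse 2 or 3, with an adjusted p of up to 0.141, and kept it in 4 of the 13, with differences from 0.50, with Cy-5 alone, to 1.41, with the processed signals. The arms were on separate slides at both 24 hrs points, and with slide as a random block no Cyp2b gene was called by adjusted p. Those of Cyp2b9 and Cyp2b13 post-5-day were then 0.51 and 0.42, and those of Cyp2b13 and Cyp2b10 post-10-day 0.59 and 1.00.

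**Figure D1:**
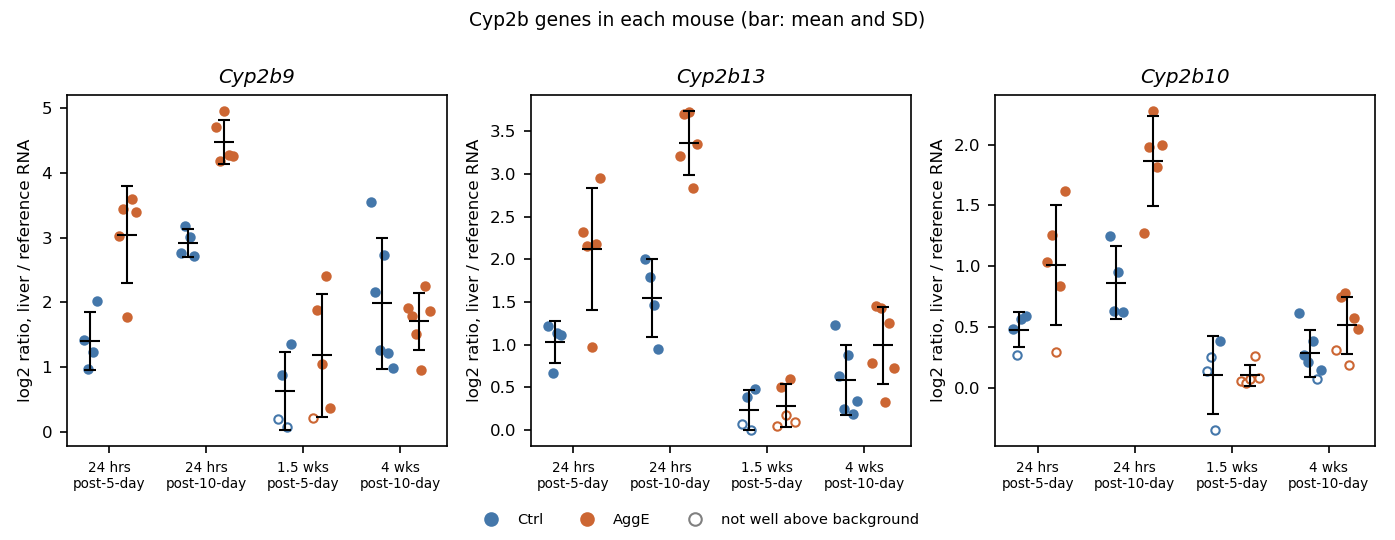
Log2 ratio of liver to reference RNA (y axis) for Cyp2b9, Cyp2b13 and Cyp2b10 in each mouse of the 8 groups (x axis), with group mean and SD as bars and open points where the probe was not well above background. The 5 AggE mice lie above all 4 Ctrl mice 24 hrs post-10-day for each gene, while the arms overlap at the other times.

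Values not overlapping between arms were seen for 3 members 24 hrs post-10-day, these Cyp2b genes, against 1.86% of all genes, and for no member 24 hrs post-5-day, where 7.33% of all genes did so. The other Cyp2b members, Cyp2b19 and Cyp2b23, differed by 0.03 and 0.02 post-5-day and by -0.04 and 0.03 post-10-day, and were well above background on 19 arrays and on none. Cyp2b9 and Cyp2b13 each had a dimmer probe too, well above background on 8 and 11 arrays. The dimmer Cyp2b9 probe was 0.37 higher in AggE at both 24 hrs points, with adjusted p of 0.039 post-5-day and 0.506 post-10-day. The dimmer Cyp2b13 probe was 0.12 higher post-5-day (adjusted p = 0.56) and 0.37 higher post-10-day (adjusted p = 0.27).

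At the later times the Cyp2b differences were not called. For Cyp2b9 1.5 wks post-5-day, 2 of 4 Ctrl and 4 of 5 AggE mice were well above background, and the difference was 0.56 ± 0.44 (adjusted p = 1). Cyp2b13 differed by 0.05 ± 0.28 there, and Cyp2b10, well above background in 1 Ctrl mouse and in no AggE mouse, gave 0.11 ± 0.32 (SD, n = 4) in Ctrl and 0.10 ± 0.09 (SD, n = 5) in AggE. At 4 wks post-10-day, Cyp2b9 differed by -0.27 ± 0.38, Cyp2b13 by 0.41 ± 0.24 and Cyp2b10 by 0.23 ± 0.16, with adjusted p of 0.75, 0.34 and 0.45. The difference between the 24 hrs and the later effect was itself tested. From 24 hrs to 4 wks post-10-day the AggE effect was smaller by 1.40 ± 0.36 for Cyp2b13 (adjusted p = 0.247), 1.83 ± 0.58 for Cyp2b9 (adjusted p = 0.402) and 0.77 ± 0.25 for Cyp2b10 (adjusted p = 0.417). From 24 hrs to 1.5 wks post-5-day it was smaller by 1.03 ± 0.39 for Cyp2b13 (adjusted p = 0.49). None passed, so a return of these genes to the Ctrl level was not established by these data.

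Cyp2b9 had the lowest Ctrl mean 1.5 wks post-5-day, 0.63 ± 0.60 (SD, n = 4), followed by 1.41 ± 0.45 (SD, n = 4) 24 hrs post-5-day, 1.98 ± 1.01 (SD, n = 6) 4 wks post-10-day and 2.92 ± 0.22 (SD, n = 4) 24 hrs post-10-day. The Ctrl mice 24 hrs post-10-day thus lay near the AggE mice 24 hrs post-5-day, at 3.05 ± 0.75 (SD, n = 5). Ctrl groups of different times were not tested against each other.

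Within groups the Cyp2b genes moved together from mouse to mouse. Over the 32 mice that shared group and slide with another, the deviations of Cyp2b9 and Cyp2b13 from their group and slide mean had a Pearson r of 0.723 and a Spearman rho of 0.721 (permutation test, p = 2e-05 and 1.0e-05, adjusted p = 2.67e-05 for each), and an r of 0.699 without the 2 mice farthest out. Cyp2b10 and Cyp2b13 gave 0.771 and 0.839 (permutation test, p = 1.0e-05 for each, the smallest 100000 permutations can give, adjusted p = 1.6e-05 and 2.67e-05), and 0.761 without 2 mice. Cyp2b9 and Cyp2b10 gave 0.521 and 0.591 (permutation test, p = 0.00226 and 0.00047, adjusted p = 0.00226 and 0.000537), and 0.501 without 2. The p-values are 2-sided and adjusted over 8 relations, and with deviations taken from the group mean alone r was 0.682, 0.802 and 0.496 over all 39 mice. Values were shuffled over all the mice compared, not within group and slide. Deviations from a shared mean are not independent, so these p-values can be too small. How far each probe also binds the RNA of its close copies was not tested, since the probe sequences were not used here.

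Other liver genes moved at the same 24 hrs points. Of 17 acute phase and inflammation genes, 8 were called higher and none lower post-5-day, among them Saa1 at 3.76 ± 0.44 and Lcn2 at 3.47 ± 0.33 on the log2 scale, and 5 were called higher post-10-day. The summed liver signal of 5 Kupffer cell markers, as the log2 of its parts in 1000000 of the array's summed signal, lay at 6.75 to 7.33 in Ctrl and 7.36 to 7.70 in AggE mice post-5-day, and at 6.38 to 7.17 and 7.22 to 7.57 post-10-day. None of these markers was called in either comparison. Marco, a scavenger receptor of macrophages, differed by 1.21 ± 0.43 post-5-day (adjusted p = 0.117) and 1.31 ± 0.43 post-10-day (adjusted p = 1). The sum of the 6 hepatocyte markers was 13.8 to 14.2 in Ctrl and 14.3 to 14.9 in AggE mice post-5-day and overlapped post-10-day. Of 5 biliary markers Spp1, osteopontin, was called higher post-5-day at 1.28 ± 0.25, and of the markers of stellate cells, endothelium, neutrophils, pancreas, intestine, erythroid cells, fat and muscle none was called at any of the 4 times. The biliary sum parted at both points, at 3.77 to 4.71 in Ctrl and 5.15 to 6.79 in AggE mice post-5-day and at 4.75 to 4.87 and 5.76 to 6.66 post-10-day. The sum of 4 intestine markers was lower in AggE, at 7.04 to 7.61 in Ctrl and 5.86 to 6.31 in AggE mice post-5-day and at 7.11 to 8.04 and 6.31 to 6.75 post-10-day. Fabp2, a fatty acid binding protein, was the only one of the 4 well above background in every mouse at these points and differed by -1.38 ± 0.41 and -0.78 ± 0.41 (adjusted p = 0.0521 and 1). Post-5-day the sums also parted for 5 neutrophil markers (0.90 to 1.70 in Ctrl, 1.74 to 4.08 in AggE) and 3 erythroid markers (9.25 to 9.87 and 9.88 to 10.3). Only 1 of the 5 neutrophil markers was well above background in any mouse there. The sums were taken without the normalization between arrays used in the fit. Post-5-day the fitted median differences of the hepatocyte, Kupffer cell, biliary, neutrophil and erythroid markers were 0.07, 0.02, 0.02, 0.02 and 0.04. The sums of the remaining lists overlapped at both points. The part of these genes and cell types in the Cyp2b result was not tested. In bulk liver, fewer cells of a type and less RNA per cell cannot be told apart.

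At 4 wks post-10-day stressor the members called were others. Cyp2a4, a testosterone hydroxylase of mouse liver, and Cyp2a5, the coumarin and nicotine hydroxylase, fell, and Cyp2c54, an epoxygenase of arachidonic and linoleic acid, rose. By adjusted p these 3 of 45 members (6.67%) were called, against 4.17% of all genes, a share near the background. By the 2-fold rule 3 members were called, Cyp2a4, Cyp2a5 and Cyp2c40, all lower, against 0.300% of all genes.

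The 6 Ctrl mice ran from 7.23 to 8.24 with a median of 7.59 for Cyp2a4, and the 6 AggE mice from 5.60 to 7.02 with a median of 6.18. Every AggE mouse was below every Ctrl mouse. The difference was -1.27 ± 0.30, so that the level was 2.41-fold higher in Ctrl, with an adjusted p of 0.022. For Cyp2a5 the Ctrl mice ran from 7.82 to 8.79, median 8.42, and the AggE mice from 6.66 to 7.95, median 7.32. The arms overlapped at 1 Ctrl mouse, and the difference was -1.05 ± 0.29 (adjusted p = 0.036). Their second probes gave -0.57 for Cyp2a4 (adjusted p = 0.41) and -0.78 for Cyp2a5 (adjusted p = 0.054). The third gene of the subfamily, Cyp2a12, differed by -0.85 ± 0.48 (adjusted p = 0.33).

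At the other times Cyp2a4 and Cyp2a5 were not called, though without normalization between arrays both were called lower by the 2-fold rule 24 hrs post-5-day. Cyp2a4 differed by -0.54 ± 0.35 24 hrs post-5-day, by -0.08 ± 0.35 24 hrs post-10-day and by 0.13 ± 0.35 1.5 wks post-5-day. Cyp2a5 gave -0.41 ± 0.33, -0.18 ± 0.33 and -0.38 ± 0.33 at these times. In the 5-day AggE group at 24 hrs the same 2 mice, numbers 4 and 5, were the lowest for both genes, at 6.00 and 5.85 for Cyp2a4 and 7.77 and 7.11 for Cyp2a5, while the other 3 lay within or near the Ctrl range. The AggE effect 24 hrs post-10-day minus that 4 wks post-10-day was 1.19 ± 0.46 for Cyp2a4 (adjusted p = 0.47) and 0.87 ± 0.44 for Cyp2a5 (adjusted p = 0.58), the effect at 4 wks being the more negative one. Over the 32 mice, deviations of the 2 genes from their group and slide mean had an r of 0.77 and a rho of 0.687 (permutation test, p = 1.0e-05 and 5e-05, adjusted p = 1.6e-05 and 6.67e-05), and an r of 0.67 without the 2 mice farthest out. Binding of each probe to the other gene's RNA was not tested, so the 2 falls may not be separate.

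Cyp2c54 4 wks post-10-day ran from 1.26 to 2.32 in Ctrl, median 1.69, and from 1.96 to 3.68 in AggE mice, median 2.58. The arms overlapped, with the difference at 0.91 ± 0.25 (adjusted p = 0.035). Cyp2c40, a hydroxylase of arachidonic acid, ran from 6.65 to 7.28 in Ctrl and from 4.69 to 6.96 in AggE mice. The AggE values parted, with 3 mice at 4.69, 4.85 and 5.31 and the other 3 at 6.36, 6.46 and 6.96, the highest of which lay in the Ctrl range. Its difference was -1.09 ± 0.33 with an adjusted p of 0.055, and its second probe gave -0.16 (adjusted p = 0.87). Arms that did not overlap were seen for 2 members, Cyp2a4 and Cyp2c66, against 1.77% of all genes. Cyp2c66, named after its values were seen, ran from 0.04 to 0.16 in Ctrl and from 0.19 to 0.49 in AggE mice (adjusted p = 0.0593).

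Single mice decided these calls too. Cyp2a4 was not called by adjusted p without AggE mouse 2 or 3 or Ctrl mouse 3 (0.0734, 0.067 and 0.0514). Cyp2a5 was not called without AggE mouse 2 or 3 or without any Ctrl mouse but mouse 2 (0.0529 to 0.119), nor Cyp2c54 without AggE mouse 3 or 5 or Ctrl mouse 1, 3, 5 or 6 (0.0528 to 0.0982). Without AggE mouse 3 or Ctrl mouse 3 no member was called, and without AggE mouse 4 or 6 or Ctrl mouse 2 the count was 5, with Cyp2c40 and Cyp2c66 added. Under 14 other ways of processing or fitting, Cyp2a5 and Cyp2c54 were called by adjusted p in 5 each and Cyp2a4 in 4. The directions held, but the differences ran from -1.81 to -0.45 for Cyp2a4, from -1.73 to -0.35 for Cyp2a5 and from 0.10 to 1.61 for Cyp2c54. That of Cyp2c40 ran from -1.75 to -0.29 and kept its call by the 2-fold rule in 8 of the 14. Without 1 mouse its adjusted p ran from 0.0221 to 0.173, and it lost the 2-fold call without AggE mouse 1, 2 or 3.

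**Figure D2:**
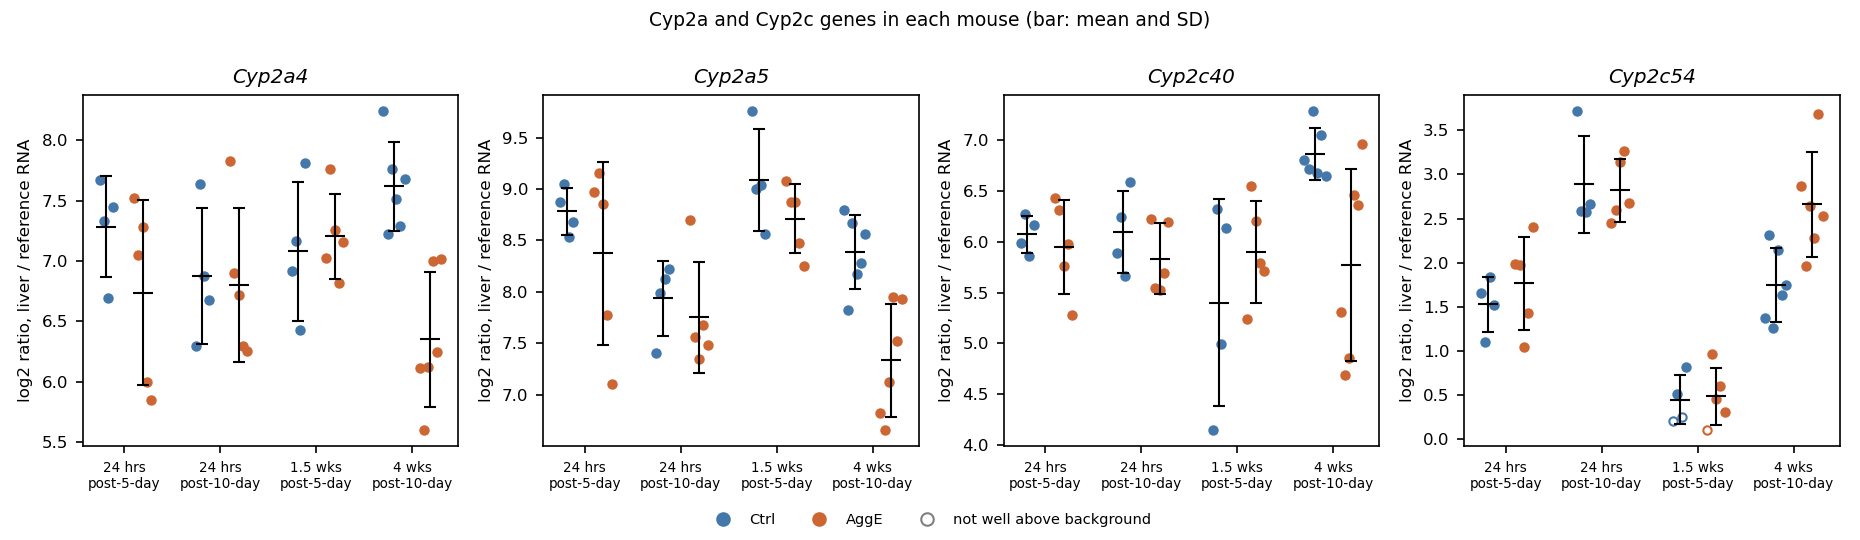
Log2 ratio of liver to reference RNA (y axis, a scale of its own for each gene) for Cyp2a4, Cyp2a5, Cyp2c40 and Cyp2c54 in each mouse of the 8 groups (x axis), with mean and SD as bars. At 4 wks post-10-day the AggE mice lie at 5.60 to 7.02 for Cyp2a4, below the Ctrl mice at 7.23 to 8.24, and the AggE mice of Cyp2c40 fall apart into 3 low and 3 high values.

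On the 1 slide that held both arms 4 wks post-10-day, the single AggE mouse differed from the mean of 3 Ctrl mice by -1.38 for Cyp2a4, -1.52 for Cyp2a5, -1.48 for Cyp2c40 and 1.03 for Cyp2c54. That mouse is part of the whole comparison and was low for other members too, such as Cyp2c23 (-1.84) and Cyp3a16 (-1.80), so these values are no separate support. With slide as a random block no member was called by adjusted p at any time. The adjusted p of Cyp2a4 4 wks post-10-day was then 0.12, of Cyp2a5 0.11 and of Cyp2c54 0.15. The differences themselves moved little, to 1.25 for Cyp2b13 post-5-day and -1.18 for Cyp2a4, and the genes called by the 2-fold rule were the same at all 4 times.

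Over all 45 members the direction differed between the times. At 4 wks post-10-day 29 were lower in AggE and 16 higher, with a median of -0.18 where that of all genes was 0.01. At the unadjusted p of 0.05 there were 12 members (26.7%), against 22.6% of all genes. All 6 Cyp3a members were on the lower side, from -0.31 to -0.88, but none was called, and the second probes of Cyp3a25 and Cyp3a44 were on the higher side, at 0.23 and 0.11. Of 6 hepatocyte markers all 6 were on the lower side too, with a median of -0.46 and none called, and their summed share overlapped between the arms, at 14.0 to 14.2 in Ctrl and 14.0 to 14.3 in AggE mice. Of the biliary markers Epcam was called lower at -0.67 ± 0.16. Of 17 acute phase and inflammation genes 4 were on the higher side, with a median of -0.31 and 1 called in each direction. The sum of 3 erythroid markers had a median of 7.05 in Ctrl and 9.39 in AggE mice, with overlapping arms. The part of these in the result was not tested. At 24 hrs post-5-day the median of the members was 0.03, with 4 members (8.89%) at the unadjusted p against 16.7% of all genes, and at 24 hrs post-10-day it was 0.01, with 3 members (6.67%) against 2.89%.

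**Figure D3:**
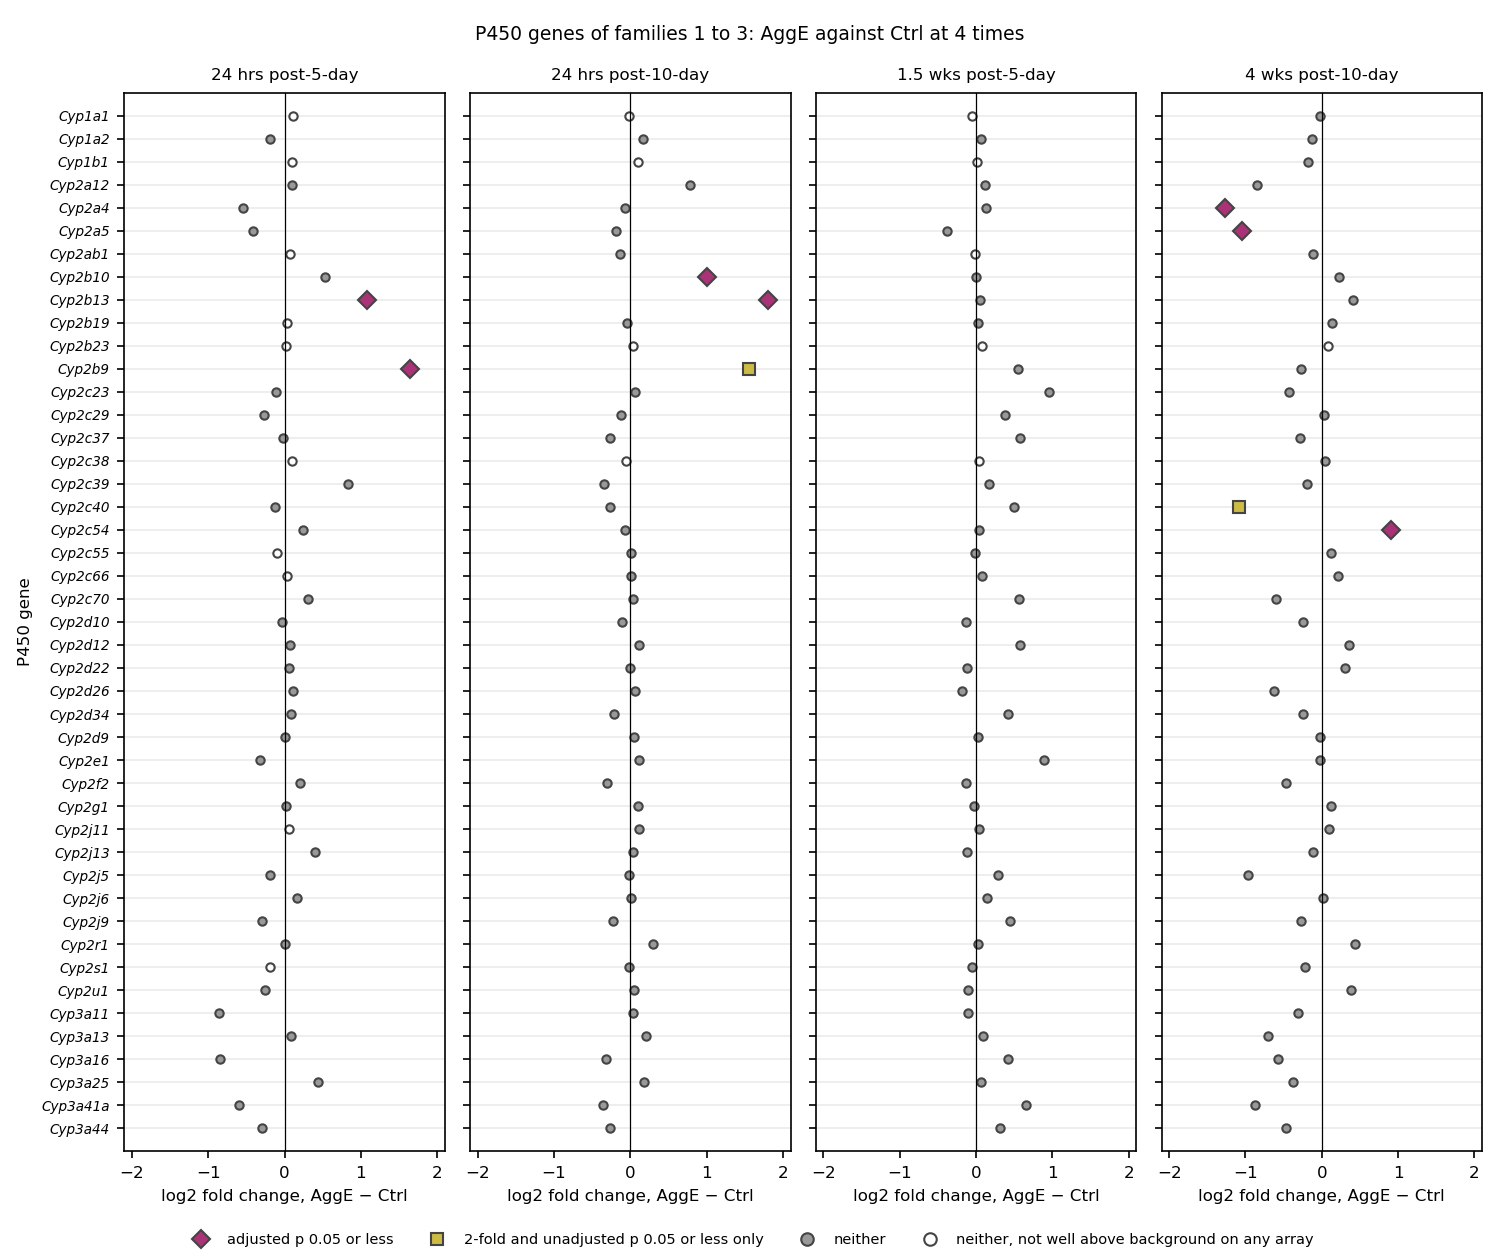
Log2 fold change, AggE minus Ctrl (x axis), of each of the 45 members (y axis) at the 4 times, with the members called by each rule marked by shape and colour. Cyp2b9, Cyp2b13 and Cyp2b10 stand to the right at both 24 hrs points, up to 1.81, and the Cyp2a genes to the left 4 wks post-10-day, down to -1.27.

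At 1.5 wks post-5-day no member was called by adjusted p, as 0% of all genes were, nor by the 2-fold rule (0.0411% of all genes), and in none did the arms part (0.805% of all genes). At the unadjusted p there was 1 member (2.22%) against 2.46% of all genes, Cyp2c23, an arachidonic acid epoxygenase better known from kidney. It measured 1.98, 3.17, 4.06 and 4.78 in Ctrl and 3.56, 3.87, 4.66, 4.71 and 5.43 in AggE mice, which overlapped, and differed by 0.95 ± 0.43 (adjusted p = 1). Without Ctrl mouse 4 there were 4 members by the 2-fold rule (Cyp2c23, Cyp2c37, Cyp2e1 and Cyp3a41a), and 2 without Ctrl mouse 2 or AggE mouse 1 or 5. Ctrl mouse 4 is the one whose title bears a 10, with a prefix (HC) that no other Ctrl mouse has. The members' median was 0.06, with 31 of 45 higher in AggE, where all genes had a median of -0.0024 and 48.8% of them were higher. The doubt over the regimen, 5 or 10 days, covers the whole AggE arm and 1 Ctrl mouse here.

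Family 1, the AhR targets, was measured in full only for Cyp1a2, the caffeine-metabolising enzyme of liver, which differed by -0.19 ± 0.35, 0.17 ± 0.35, 0.07 ± 0.35 and -0.13 ± 0.30 at the times in the order 24 hrs post-5-day, 24 hrs post-10-day, 1.5 wks and 4 wks. The interval of the difference 24 hrs post-10-day ran from -0.53 to 0.87. Its second probe gave 0.71 4 wks post-10-day, the other direction (adjusted p = 0.36). Cyp1a1, the enzyme that AhR ligands induce most, was well above background on 1 of 39 arrays, and Cyp1b1, which is made mostly outside hepatocytes, on 6.

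Cyp3a11, the main drug- and steroid-metabolising enzyme of family 3 in mouse liver, measured 5.52, 5.98, 6.00 and 6.52 in Ctrl and 4.59, 4.62, 4.93, 5.78 and 5.82 in AggE mice 24 hrs post-5-day. The upper 2 AggE mice lay in the Ctrl range and the other 3 below it. The difference was -0.86 ± 0.35, with an unadjusted p of 0.019 and an adjusted p of 0.18, and was 0.03 ± 0.35 24 hrs post-10-day. Over 13 other ways of processing or fitting the post-5-day difference ran from -1.72, without normalization between arrays, where it was called by the 2-fold rule, to -0.11, with the deposited log10 ratios. Cyp3a16, known from fetal liver, and Cyp3a41a, a gene of female liver, differed by -0.85 ± 0.54 and -0.60 ± 0.40 at 24 hrs post-5-day, and Cyp3a41a by -0.88 ± 0.34 at 4 wks (adjusted p = 0.13). Cyp3a44, another gene higher in females, ranged over the 4 times from -0.47 to 0.32, Cyp3a25 from -0.38 to 0.44 and Cyp3a13 from -0.71 to 0.21, none of them called. The second probe of Cyp3a25 gave -0.61 24 hrs post-5-day, where the brighter one gave 0.44.

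The other enzymes that liver makes at high levels were not called either, and most intervals were wide. Cyp2e1, which oxidises ethanol and paracetamol, differed by -0.33 at 24 hrs post-5-day (interval -1.46 to 0.81), by 0.11 post-10-day (-1.02 to 1.24) and by 0.89 at 1.5 wks (-0.24 to 2.02). Cyp2c29, an arachidonic acid epoxygenase, differed by -0.26 (-1.13 to 0.60) and -0.12 (-0.99 to 0.75). Cyp2d9, a male-biased steroid hydroxylase, differed by 0.00 (-0.64 to 0.64) and 0.04 (-0.60 to 0.69). Cyp2f2, the periportal naphthalene-oxidising enzyme, reached -0.47 at 4 wks (-0.91 to -0.04, adjusted p = 0.20), and Cyp2j5, an epoxygenase of liver and kidney, -0.97 (-1.67 to -0.26, adjusted p = 0.105). The second probe of Cyp2j5 gave -1.13 at 4 wks (adjusted p = 0.0871), and the gene was called lower by the 2-fold rule with the mean over its probes, with an offset of 16 or 0 and without normalization between arrays.

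**Figure D4:**
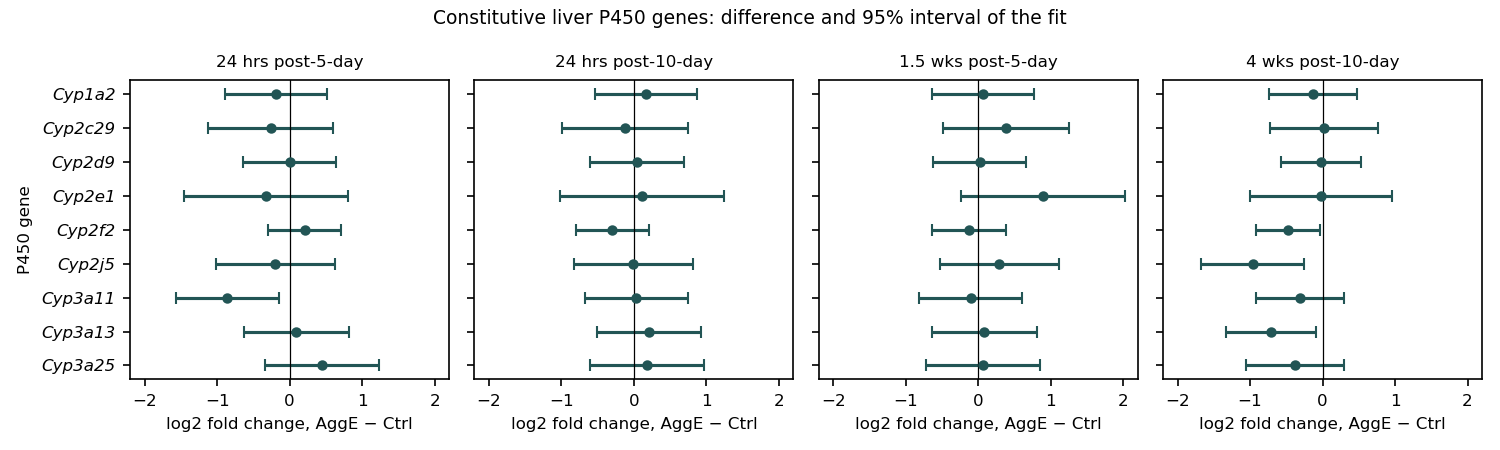
Log2 fold change, AggE minus Ctrl, with its 95% interval (x axis) for 9 P450 genes expressed throughout the study (y axis) at the 4 times. Most intervals span 0, as for Cyp2e1 24 hrs post-10-day (-1.02 to 1.24), while those of Cyp3a11 24 hrs post-5-day and of Cyp2f2, Cyp2j5 and Cyp3a13 4 wks post-10-day lie below 0.

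Cyp2r1, the liver enzyme of the first hydroxylation of vitamin D, ran from 0.27 to 0.75 in Ctrl and from 0.47 to 1.41 in AggE mice 4 wks post-10-day (0.43 ± 0.15, adjusted p = 0.093), and Cyp2u1, a fatty acid hydroxylase, differed by 0.39 ± 0.19 (adjusted p = 0.24). Cyp2c70, which makes muricholic acids, differed by -0.60 ± 0.38 and Cyp2d26 by -0.62 ± 0.29 (adjusted p = 0.39 and 0.21). Cyp2d10 gave -0.25 with its brighter and 0.50 with its second probe at this time. Cyp2c39 differed by 0.83 ± 0.52 24 hrs post-5-day and Cyp2c37 by 0.57 ± 0.42 1.5 wks post-5-day, where its second probe gave -0.18, and Cyp2d22 by at most 0.30 in size at any time, none called. Cyp2c38 was well above background on 1 array and Cyp2c55 on 18, and Cyp2c50 had no probe under the rule.

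The 3 tests between times called no member, where 0.0353%, 0.0940% and 0.0764% of all genes were called for 24 hrs post-5-day against 24 hrs post-10-day, for 24 hrs against 1.5 wks post-5-day, and for 24 hrs against 4 wks post-10-day. At the unadjusted p there were 0, 2 (4.44%) and 7 (15.6%) members, against 6.34%, 7.57% and 10.0% of all genes. The 2 regimens at 24 hrs differed in their effect on Cyp2b13 by -0.73 (interval -1.52 to 0.07) and on Cyp2b9 by 0.08 (-1.17 to 1.33), so a larger effect of either regimen was not shown.

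Groups of members by known regulation were described by counts, beside which 3.13%, 0.0940%, 0% and 4.17% of all genes were called 24 hrs post-5-day, 24 hrs post-10-day, 1.5 wks and 4 wks. With 1 or 2 genes called in each, these counts are no result about the groups. Of 9 female-biased P450 genes measured, 2 were called higher 24 hrs post-5-day (Cyp2b9 and Cyp2b13) and 1 post-10-day (Cyp2b13), while the median of the 9 was -0.12 and -0.26, and at 4 wks 1 was called lower (Cyp2a4), with a median of -0.47. At 1.5 wks post-5-day all 9 were higher in AggE, with a median of 0.32 and none called. Of 7 male-biased genes only Cyp2c54 was called, 4 wks post-10-day. Of 11 CAR and PXR target P450 genes, 2 were called higher at each 24 hrs point, all Cyp2b, with medians of 0.09 and 0.01, and at 4 wks 1 was called in each direction. None of 4 AhR target P450 genes was called at any time, and of 7 genes of perivenous hepatocytes only Cyp2a5 and Cyp2c54 were, at 4 wks.

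The partners and regulators of these enzymes showed few calls. Of 9 genes of electron transfer and of haem synthesis or breakdown, none was called at any of the 4 times. Nor was any of 6 AhR targets outside the families or 14 CAR and PXR targets outside them. Of 8 genes of further fatty acid epoxide and phase I steps none was called either. An unadjusted p of 0.05 or less was seen in at most 3 genes of any of these lists at any time. Of 20 receptors and transcription factors, only Nr0b2, the repressor known as SHP, was called, higher 4 wks post-10-day by 0.50 ± 0.14 (adjusted p = 0.036). Nr1i3 and Nr1i2, which encode CAR and PXR, differed 24 hrs post-10-day by 0.49 ± 0.34 and -0.16 ± 0.40. The 14 CAR and PXR targets outside the families had a median of -0.01 at that time, with 7 of them higher in AggE, and any part of these receptors in the Cyp2b result was not tested.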

How the data were processed

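Liver RNA of 39 mice in 8 groups was measured on 2-colour Agilent arrays, with liver in Cy-5, a common mouse reference RNA in Cy-3 and no dye swap. Per the file headers the authors extracted spot intensities with Agilent Feature Extraction 11.5.1.1, and the deposited median and background intensities of both channels were used. The deposited series table of log10 ratios served as an alternative only. In R 4.3.3 with limma 3.58.1, intensities were background corrected (normexp, offset 50), ratios were loess normalized within and quantile normalized between arrays, control spots and outlier flags were left out, and 25903 probes with a RefSeq accession were fitted over all 8 groups (lmFit, eBayes). The p-values were adjusted by Benjamini-Hochberg over all these probes, of which 24375 had a symbol. Flagged spots made up 0.295% to 1.46% of an array and no Cy-5 spot was saturated. The number of arrays and the signal over background limit the precision. The arrays lay on 11 slides and were scanned on 2 days.

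Correlations used 100000 permutations, shuffled over all the mice compared and not within group and slide, so their p-values can be too small. The fit was tested on simulated data. Named members were those called in any comparison, a list of marker enzymes, and the largest rises and falls at each time. The members and lists were chosen with earlier results of these data known. Alternatives covered background correction, normalization, channel, input signal, probe choice, slide and replicate blocks, and leaving out each mouse. Probe sequences were not used here, so cross-hybridisation between close copies was not tested.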

Additional observations from a re-analysis of the deposited data

Results flagged for a closer look

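Values of 9 members were checked in 8 groups for a mouse far from the rest of its group, and 4 of 72 checks found one, where chance gives about 1 in 20. Cyp2a12 measured 0.94 in Ctrl mouse 3 24 hrs post-10-day, and the nearest other mouse 4.43. This gene was added to the check after its values were seen. Cyp2c54 measured 3.72 in Ctrl mouse 1 24 hrs post-10-day, with the next at 2.66. Cyp2a5 measured 8.70 in AggE mouse 1 24 hrs post-10-day, with the next at 7.67. Cyp2b10 measured 0.26 in AggE mouse 4 1.5 wks post-5-day, with the next at 0.08, and was not well above background in that group.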

How the results depend on the processing

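Counts by adjusted p were 2, 2, 0 and 3 members 24 hrs post-5-day, 24 hrs post-10-day, 1.5 wks post-5-day and 4 wks post-10-day, and 2, 3, 0 and 3 by the 2-fold rule. The counts between times stayed at 0 under every alternative, and none of Cyp2b9, Cyp2b13, Cyp2b10, Cyp3a11, Cyp2a4, Cyp2a5, Cyp2c40 and Cyp2c54 changed direction where followed. The other named genes were not followed. Second probes pointed the other way at 1 or more times for Cyp1a2, Cyp2c37, Cyp2d9, Cyp2d10, Cyp2g1, Cyp2j5, Cyp2j11, Cyp3a25 and Cyp3a44, and 1 further probe of Cyp2j13 did so. At times where the genes were not called, second probes also did so for Cyp2b9 (1.5 wks and 4 wks), Cyp2a4 (24 hrs post-10-day), Cyp2a5 (1.5 wks) and Cyp2c40 (24 hrs post-5-day). In the order 24 hrs post-5-day, 24 hrs post-10-day and 4 wks post-10-day, the adjusted p counts were 1, 0 and 1 with no background correction, 0, 2 and 0 with an offset of 16, 1, 0 and 0 with an offset of 0, 1, 0 and 0 with the processed signals of Feature Extraction, and 0, 0 and 0 with the deposited log10 ratios. Without normalization between arrays, or with Aquantile, which leaves the ratios as loess gave them, they were 0, 0 and 4, the 4 all lower (Cyp2a4, Cyp2a5, Cyp2c40 and Cyp2j9, with Cyp2c54 lost). With Cy-5 alone they were 1 post-10-day and 0 at 4 wks, fitting only the groups compared 0 post-5-day and 0 at 4 wks, with slide as a random block 0 each time (correlation of 0.32 within a slide), and with slide as a fixed block 0 at 4 wks. The genes called differed as well as their number: the 1 post-5-day was Cyp2s1, well above background in no mouse of either arm there, without background correction or with an offset of 0, and Cyp2j9 with the processed signals. By the 2-fold rule the counts post-5-day were 6 with the processed signals and the log10 ratios, none of them Cyp2b, 3 with an offset of 0, all lower and none Cyp2b, 5 without normalization between arrays or with Aquantile, all lower (Cyp2a4, Cyp2a5, Cyp3a11, Cyp3a16 and Cyp3a41a), and 1 with Cy-5 alone or the mean over probes. They were 1 post-10-day without normalization between arrays or with Aquantile (Cyp2b13), 2 with the processed signals or the log10 ratios (Cyp1b1 and Cyp2j11, none Cyp2b), and 1 at 1.5 wks with an offset of 0 (Cyp2j9). At 4 wks, where the 3 reported were all lower, the direction turned with the processed signals or the log10 ratios, with 2 called and both higher (Cyp2c54 and Cyp2r1), and with no background correction (1, Cyp2c54) or Cy-5 alone (1, Cyp2d12), each higher. The counts were 1 with the mean over probes (Cyp2j5, lower, none of the 3 reported), 7 and 9 with an offset of 16 and 0, 10 without normalization between arrays or with Aquantile, and 6 with slide as a fixed block. Leaving out 1 mouse gave 0 to 3, 1 to 2, 0 and 0 to 5 by adjusted p at the 4 times in order, and 1 to 3, 2 to 3, 0 to 4 and 1 to 6 by the 2-fold rule. With the replicate block the adjusted p counts were 2, 1, 0 and 3, Cyp2b10 going to an adjusted p of 0.0644 post-10-day. Same-numbered mice shared only a number, with correlations of their deviations from -0.443 to 0.501. The causes of these shifts were not tested. Low signal limits Cyp1a1, Cyp1b1, Cyp2c38, Cyp2b23 and Cyp2j11, Cyp2s1 24 hrs post-5-day, and Cyp2b10 1.5 wks post-5-day.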
